A study of Mus musculus with 12 samples.

Results

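Left ventricles (LVs) of mice that lacked miR-150 in cardiomyocytes (CMs) were compared with LVs of control mice 4 weeks after myocardial infarction (MI), on 3 arrays against 3, which are 6 of the 12 arrays of the series. The comparison asks which transcripts differ between the genotypes once the heart has been infarcted. The members were taken from the sample labels alone: the MI miR-150 cKO mice carried alphaMHC-Cre and miR-150 fl/fl, and the MI miR-150 fl/fl mice carried the floxed alleles without Cre. All 6 mice were C57BL/6J, and MI was made by tying off the left anterior descending coronary artery for good. The other 6 arrays held sham-operated mice, 3 of each genotype, and entered the same fit. The groups MI miR-150 cKO and, as its control, MI miR-150 fl/fl are called cKO MI and fl/fl MI from here on.

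Several features of these groups limit what the comparison can show. The alphaMHC promoter drives Cre in CMs, and only the cKO mice carried it, so that Cre itself and the loss of miR-150 cannot be told apart. The labels give an age of 15 weeks for all 3 cKO MI mice and 14 weeks for all 3 fl/fl MI mice, so that genotype and this difference in age cannot be told apart either. In replicate order, the sham mice were 15, 14 and 15 weeks old in miR-150 cKO and 14, 14 and 13 weeks old in miR-150 fl/fl. Each MI group and each sham group held 1 male and 2 females. The males of the MI groups were cKO MI replicate 2 and fl/fl MI replicate 1. RNA came from whole LV, which holds CMs beside fibroblasts, leukocytes and vessel cells. In such bulk samples, fewer cells of a type and less RNA per cell cannot be told apart. No probe of miR-150 itself was among those with a name, so the targeted microRNA was not analysed here.

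MicroRNAs are short RNAs that guide a repressor complex to messenger RNAs carrying matches to their seed, which usually lowers the stability and translation of those messengers. miR-150 is known for its part in lymphocyte maturation, and in the heart it is known to fall with injury and heart failure. After MI the surviving myocardium takes on a remodelling program in which fetal sarcomere genes and natriuretic peptides are expressed again, matrix is laid down, and genes of fatty acid oxidation and ion transport decline. The miR-150 hairpin gives the strands miR-150-5p and miR-150-3p. The study uses the name miR-150 for miR-150-5p. The mature sequence below, from RefSeq on build GRCm38.p6, is that of the other strand, miR-150-3p, and is shown because the deleted locus encodes it. It lies at chr7:45121798-45121819 on the plus strand, is 22 bases long, and has its seed (bases 2 to 8) in capitals. Among 1738 mature mouse entries of the RefSeq table, 1 had this seed.
mmu-miR-150-3p: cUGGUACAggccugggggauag

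The arrays were 1-colour Agilent arrays on which each probe reads an exon or splice junction of 1 transcript. A level is the log2 of the background-subtracted spot intensity minus the 75th percentile of that array, so a level of 0 is that percentile and a step of 1 is a doubling. Levels of different probes are not comparable with each other. A difference is the mean level of cKO MI minus that of fl/fl MI, followed by its standard error (SE) from the limma fit, with 3 arrays in each group. A transcript was past the limits if its fold was 1.5 or more while its unadjusted p stayed under 0.05, and "higher" or "lower" without further words means higher or lower in cKO MI past the limits. Values of single arrays are given in the order of replicates 1, 2 and 3. The labels do not tie replicate numbers to anything but separate mice, and the number of arrays limits the precision.

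The 2 groups were nearly divided between slides, as inferred from scan batches and array positions. Slide 1 held all 3 cKO MI arrays and fl/fl MI replicate 3, and slide 2 held fl/fl MI replicates 1 and 2 with all 6 sham arrays. A fit with slide as a block therefore compares 3 cKO MI arrays with 1 fl/fl MI array, and its difference is given as the slide-block difference. Replicate 2 of fl/fl MI stood apart, with Pearson correlations across probes of 0.973 to 0.984 with the other 5 MI arrays, against 0.985 to 0.993 among those 5. The share of probes well above background was 87.4% to 89.4% on the cKO MI arrays and 81.5% to 87.9% on the fl/fl MI arrays.

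Of 54232 transcripts tested after MI, 1873 (3.45%) were higher and 712 (1.31%) were lower in miR-150 cKO, together 4.77%. Thus 72.5% of the calls were higher. After quantile normalization 1661 (3.06%) were higher and 1000 (1.84%) lower, so that 62.4% of the calls were higher. After normexp background correction 1318 (2.43%) were higher and 338 (0.623%) lower, so that 79.6% were higher. In the slide-block fit, 625 (1.15%) were higher and 762 (1.41%) lower, so that 45.1% of the calls were higher. Of the 1873 higher transcripts, 419 were past the limits in that fit too, and of the 712 lower transcripts, 232 were. The slide-block fit uses arrays of the fit without the block, so these are no independent support. After Benjamini-Hochberg adjustment over all transcripts tested, 1 (0.00184%) had an adjusted p under 0.05 in limma, a probe without a name, against 9111 (16.8%) with an unadjusted p under 0.05. A single array moved these counts. There were 946 higher transcripts without fl/fl MI replicate 2 and 2794 without fl/fl MI replicate 3. Lower transcripts numbered 423 without cKO MI replicate 2, 1098 without fl/fl MI replicate 1 and 1177 without fl/fl MI replicate 3.

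Only 892 of these transcripts, from 863 genes, have a name here, since names came from matching a gene table of the study to the deposited values. A gene is in that table because the study selected it in some comparison, and 692 of the 892 were selected in the very comparison described here. All 892 named transcripts were tested, and 373 were higher and 180 lower, with a median difference of 0.54. These counts, and those of the gene lists below, are therefore descriptions of named transcripts and no independent evidence, and beside each list stands the number of its transcripts that were named through this comparison. The smallest adjusted p of a named transcript was 0.073, which 51 named transcripts shared within 0.001. An exact permutation test of 3 arrays against 3 cannot give a p below 0.1, which is reached by every transcript whose groups do not overlap. Of all transcripts tested, 15.4% lay without overlap higher and 13.1% without overlap lower in cKO MI.

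**Figure D1:**
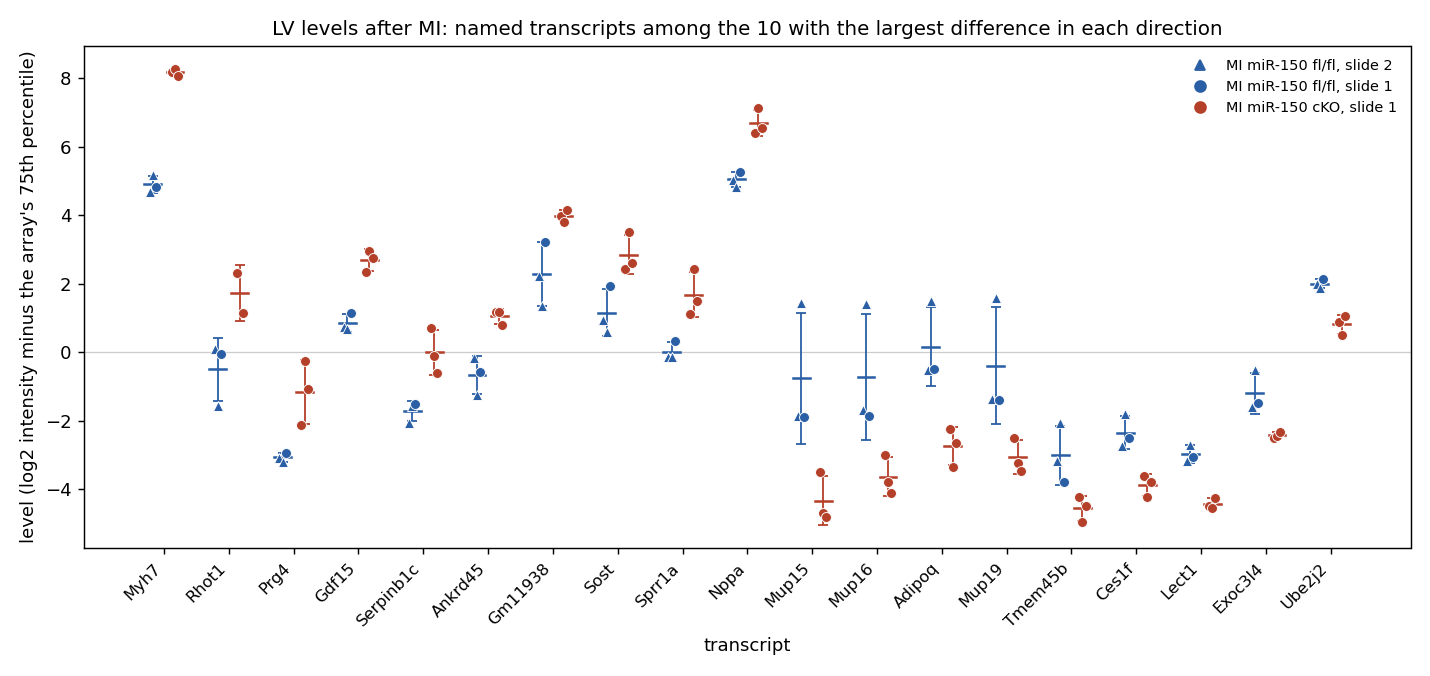
Levels on the 6 MI arrays of named transcripts among the 10 with the largest difference in each direction, on the y axis as log2 intensity minus the array's 75th percentile, with the transcripts on the x axis. Each point is 1 mouse, circles are arrays of slide 1 and triangles of slide 2, and bars give the mean ± SD. The cKO MI points of Myh7 lie between 8.06 and 8.26 and the fl/fl MI points between 4.68 and 5.19, whereas for Mup15, Mup16, Mup19 and Adipoq a single fl/fl MI point, replicate 2, lies well above the other two.

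Genes that the stressed ventricle switches on were mostly higher. Of 12 genes of the cardiac stress list, 9 had a named transcript, of which 7 were higher and 0 lower. Their median difference was 1.60, beside 0.0046 over all transcripts tested and 0.54 over all named transcripts. The study's table named 8 of the 9 through this comparison. Once slide was blocked, 5 were higher and the median was 1.39. Myh7, the slow beta-myosin heavy chain that adult mouse ventricle normally keeps low, had levels of 8.19, 8.26 and 8.06 in cKO MI and 4.68, 5.19 and 4.84 in fl/fl MI. The groups lay more than 2 log2 units apart, and every cKO MI heart was above every fl/fl MI heart. The difference was 3.27 ± 0.56, or 9.63-fold, with an adjusted p of 0.073 and a slide-block difference of 3.33. This was the largest difference above 0 among the named transcripts.

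Of the natriuretic peptides, Nppa was past the limits and Nppb was not, though the difference between them was not tested. Nppa, which encodes atrial natriuretic peptide, had levels of 6.40, 7.13 and 6.55 in cKO MI and 5.04, 4.83 and 5.27 in fl/fl MI. Its groups did not overlap, and its difference of 1.65 ± 0.35 (adjusted p = 0.087) was 1.43 with slide as a block. Nppb, which encodes B-type natriuretic peptide, had levels of 5.93, 4.89 and 5.11 in cKO MI and 4.31, 5.11 and 4.61 in fl/fl MI. These overlapped, and the difference of 0.63 ± 0.32 was not past the limits. In the sham arrays the differences between the genotypes were 2.0 for Nppa and 2.33 for Nppb. Whether the genotype difference of Nppb differed between MI and sham hearts was tested as an interaction. In limma its value was -1.69 ± 0.45, with an adjusted p of 0.223. Slide was not blocked in it, and all sham arrays were on slide 2.

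Transcripts of secreted and matrix-bound stress proteins were higher as well. Gdf15, a stress-induced cytokine of the TGF-beta superfamily, had levels of 2.35, 2.97 and 2.76 in cKO MI against 0.73, 0.69 and 1.14 in fl/fl MI. Every cKO MI value exceeded every fl/fl MI value, with a difference of 1.84 ± 0.24 (adjusted p = 0.073). Ctgf, the matricellular growth factor CCN2, had levels of 1.51, 2.27 and 1.72 against 0.29, -0.05 and 0.44, a difference of 1.60 ± 0.36 (adjusted p = 0.094). Its relative Cyr61 (CCN1) had levels of 4.09, 4.71 and 4.35 against 3.47, 3.04 and 3.87, a difference of 0.92 ± 0.35. With slide as a block, the differences were 1.55 for Gdf15, 1.39 for Ctgf and 0.51 for Cyr61, of which that of Cyr61 was not past the limits. The calls lost when 1 array was left out were Cyr61 (0.76) without cKO MI replicate 2, and Cyr61 (0.71) without fl/fl MI replicate 2.

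Sprr1a encodes a small proline-rich protein known from the cornified envelope of skin and induced in stressed CMs. Its levels were 1.13, 2.42 and 1.5 in cKO MI and -0.13, -0.15 and 0.33 in fl/fl MI. The lowest cKO MI value was still above the highest fl/fl MI value, and the difference was 1.67 ± 0.40 (adjusted p = 0.10), or 1.35 with slide as a block. Ankrd1, a stress-responsive ankyrin repeat protein of the sarcomere and nucleus, had levels of 9.51, 9.64 and 9.61 against 8.99, 8.53 and 9.05, a difference of 0.73 ± 0.26. Skeletal alpha-actin, Acta1, had levels of 2.66, 2.66 and 1.81 against 1.63, 0.43 and 0.84. Its groups did not overlap, but the spread was wide and the difference of 1.41 ± 0.64 had an unadjusted p of 0.0502, not past the limits. The slide-block difference of Ankrd1, 0.54, was not past the limits. Leaving out 1 array ended the calls of Ankrd1 (0.57) without fl/fl MI replicate 2.

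Promoters of 5 stress genes that were higher without the block are shown, so that their letters can be read beside the levels. The windows are the 250 bases before the transcription start, from RefSeq on build GRCm38.p6, 5′ to 3′ on the gene's strand, with every match to 3 motifs in capitals on either strand. MCAT, the site of the TEAD factors, was searched as CATTCC or GGAATG and is held by 12.6% of 32851 mouse promoter windows of this length. GATA was searched as GATAA or TTATC (22.6% of windows) and AP-1 as TGAGTCA or TGACTCA (4.46% of windows). No matches overlapped. The printed windows are those of Ankrd1 at chr19:36119845-36120094 on the minus strand, Cyr61 at chr3:145649986-145650235 on the minus strand, Myh7 at chr14:54994627-54994876 on the minus strand, Nppa at chr4:148000472-148000721 on the plus strand and Sprr1a at chr3:92485882-92486131 on the minus strand.
Ankrd1: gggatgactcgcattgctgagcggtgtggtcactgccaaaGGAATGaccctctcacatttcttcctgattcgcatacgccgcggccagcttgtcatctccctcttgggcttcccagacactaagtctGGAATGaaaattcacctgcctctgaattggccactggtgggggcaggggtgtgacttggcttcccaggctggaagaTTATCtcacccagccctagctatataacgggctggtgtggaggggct
Cyr61: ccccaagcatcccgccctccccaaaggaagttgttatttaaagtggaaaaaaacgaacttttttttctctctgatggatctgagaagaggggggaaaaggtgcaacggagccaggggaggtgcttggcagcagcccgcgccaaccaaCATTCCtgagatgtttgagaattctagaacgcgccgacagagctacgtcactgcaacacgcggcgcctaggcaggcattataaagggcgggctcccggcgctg
Myh7: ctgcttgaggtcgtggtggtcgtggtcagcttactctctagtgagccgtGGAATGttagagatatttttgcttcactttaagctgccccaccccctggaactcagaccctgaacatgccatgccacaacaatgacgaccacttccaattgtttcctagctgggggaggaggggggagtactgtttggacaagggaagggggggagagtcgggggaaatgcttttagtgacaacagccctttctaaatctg
Nppa: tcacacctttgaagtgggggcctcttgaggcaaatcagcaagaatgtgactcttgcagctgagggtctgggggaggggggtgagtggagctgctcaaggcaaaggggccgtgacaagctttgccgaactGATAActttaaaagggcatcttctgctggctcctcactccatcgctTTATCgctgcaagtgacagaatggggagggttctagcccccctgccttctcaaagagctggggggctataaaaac
Sprr1a: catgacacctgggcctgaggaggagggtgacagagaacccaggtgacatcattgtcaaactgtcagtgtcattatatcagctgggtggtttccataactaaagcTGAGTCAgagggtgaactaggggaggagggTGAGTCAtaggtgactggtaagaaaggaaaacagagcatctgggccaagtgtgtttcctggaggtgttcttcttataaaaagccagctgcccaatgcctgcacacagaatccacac
Each of these genes was higher, by 0.73, 0.92, 3.27, 1.65 and 1.67 in that order, but Ankrd1 and Cyr61 were not past the limits with slide as a block. The Ankrd1 window held 2 MCAT matches and 1 GATA match, the Cyr61 and Myh7 windows 1 MCAT match each, the Nppa window 2 GATA matches and the Sprr1a window 2 AP-1 matches. Myh7 has 2 starts in the table, and the window of the other start held no match. Not printed are the windows of Gdf15, whose 2 starts lie farther apart and held 1 MCAT match and none, and those of Acta1 (1 MCAT match) and Nppb (1 MCAT and 2 GATA matches), which were not past the limits. For Ctgf, which was also higher, no window was found. A match is a stretch of letters, not a site shown to be bound.

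Tead2, of the TEAD family known to bind MCAT sites, was higher, with levels of 5.73, 5.79 and 5.54 in cKO MI and 4.99, 4.61 and 4.92 in fl/fl MI. These did not overlap, and the difference was 0.85 ± 0.17 (adjusted p = 0.080), or 0.77 with slide as a block. Of the 10 cardiac transcription factor transcripts, 6 were higher and 0 lower, with a median of 0.60, and 7 had been named through this comparison. The others that were higher were the homeobox factor Nkx2-5 (0.82), Foxp1 (0.73), Mef2c (0.68), the calcineurin-regulated factor Nfatc4 (0.60) and Foxo3 (0.60). In the slide-block fit, 2 were higher, Tead2 and Foxo3 (0.59), and the median was 0.45. The difference of Tead1, -0.08, was not past the limits. With 1 array left out, the calls lost were Nfatc4 (0.57) and Foxo3 (0.54) without cKO MI replicate 1, Nfatc4 (0.58) and Foxo3 (0.53) without cKO MI replicate 2, and Nfatc4 (0.48) and Foxo3 (0.53) without fl/fl MI replicate 2.

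Sarcomere genes were past the limits in part. Of the 12 named transcripts of the sarcomere, 4 were higher and 0 lower, the median was 0.14, and 9 had been named through this comparison. After quantile normalization 4 were higher and 4 lower. Beside Myh7, the fast skeletal myosin-binding protein Mybpc2 was higher, with levels of 4.50, 4.24 and 3.80 against 2.99, 2.57 and 2.83 and a difference of 1.38 ± 0.37 (slide-block difference 1.35). Tropomyosin Tpm1 (0.86) and myosin light chain Myl6b (0.59) were also higher, without being past the limits in the slide-block fit. The troponin T transcripts had negative differences that were not past the limits, -0.55 for cardiac Tnnt2, -0.53 for slow skeletal Tnnt1 and -0.56 for fast skeletal Tnnt3. The transcript of Tpm1 was well above background on 1 of 3 fl/fl MI arrays. Calls lost without 1 array were those of Tpm1 (0.69) and Myl6b (0.48) without cKO MI replicate 2, Myl6b (0.56) without cKO MI replicate 3, Myl6b (0.56) without fl/fl MI replicate 1, and Myl6b (0.50) without fl/fl MI replicate 2.

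Transcripts of Z-disc and membrane anchor proteins were lower more often than higher. Of 15 named transcripts of the Z-disc, costamere and membrane anchors, 8 were lower and 3 higher, with a median of -0.61, and 12 had been named through this comparison. Once slide was blocked, 5 were lower and 2 higher. Tcap, the telethonin cap of titin at the Z-disc, had levels of 3.41, 3.23 and 3.34 in cKO MI and 4.31, 4.06 and 3.91 in fl/fl MI, a difference of -0.77 ± 0.12 (adjusted p = 0.073). Filip1, a filamin-interacting protein, was lower, with a difference of -1.12 ± 0.21, with levels of -1.24, -0.89 and -1.02 against 0.01, 0.40 and -0.19. Dystrophin, Dmd, had levels of -2.65, -2.95 and -2.59 against -1.74, -1.57 and -2.08, a difference of -0.93 ± 0.17. In each of these, all cKO MI hearts were below all fl/fl MI hearts, and each was also lower with slide as a block (-0.59, -0.86 and -0.65). Dystroglycan (Dag1, -0.64), the laminin receptor subunit Itga7 (-0.62), Cmya5 (-0.61) and both named transcripts of Pdlim7 (-0.61 and -0.64) were lower by smaller amounts. Higher were talin (Tln1, 1.01), a transcript of ankyrin 1 (Ank1, 1.19) and the Z-disc protein Ldb3 (0.72). No longer past the limits with 1 array left out were Pdlim7 NM_026131 (-0.56) without cKO MI replicate 1, Dag1 (-0.53) without cKO MI replicate 2, Itga7 (-0.58) without cKO MI replicate 3, Itga7 (-0.46), Cmya5 (-0.47), Pdlim7 NM_026131 (-0.55) and Ldb3 (0.50) without fl/fl MI replicate 2, and Cmya5 (-0.58) without fl/fl MI replicate 3.

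Ion channel transcripts differed in both directions. Of 21 named channel transcripts, 11 were higher and 4 lower, with a median of 0.65, and 15 had been named through this comparison. The median of all 892 named transcripts was 0.54. With slide as a block, 5 were higher and 3 lower, with a median of 0.35. Kcnd2, a subunit of the transient outward potassium current, had levels of -1.24, -1.45 and -1.56 in cKO MI and -0.96, -0.78 and -0.55 in fl/fl MI and was lower, with a difference of -0.65 ± 0.21. The accessory subunit Kcnab2 (-0.62) and the acid-sensing channel Asic2 (-0.67) were lower too.

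Potassium channels and calcium channel subunits were among the higher transcripts. Kcnj14, an inward rectifier, had levels of 1.49, 1.87 and 1.63 against 0.48, 0.20 and 0.74, a difference of 1.19 ± 0.21 (adjusted p = 0.073). Cacna2d4, an auxiliary calcium channel subunit, had levels of 0.79, 0.80 and 0.27 against -0.40, -0.73 and -0.34, a difference of 1.11 ± 0.25. The silent potassium channel subunit Kcns2 had levels of 2.69, 2.79 and 2.32 against 2.06, 1.54 and 1.64, a difference of 0.85 ± 0.21. None of these groups overlapped, and the slide-block differences of 0.92, 0.96 and 0.96 were past the limits. Kcnc4 (1.24), Trpm3 (0.91), the T-type calcium channel Cacna1g (0.84) and the beta subunits Cacnb1 (0.70) and Cacnb4 (0.67) were also higher. The difference of Cacna1g was 0.30 with slide as a block. The calls lost when 1 array was left out were Cacnb4 (0.53) without cKO MI replicate 1, Kcnab2 (-0.52) and Asic2 (-0.53) without cKO MI replicate 2, Kcnd2 (-0.58) without cKO MI replicate 3, Cacna1g (0.54) and Cacnb1 (0.58) without fl/fl MI replicate 2, and Kcnd2 (-0.55) and Kcnab2 (-0.58) without fl/fl MI replicate 3.

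In calcium handling, 5 of 7 named transcripts were lower and 2 higher, with a median of -0.73; all 7 had been named through this comparison. In the slide-block fit, 1 was lower and 1 higher, and the median was -0.58. Sarcalumenin (Srl), a calcium buffer of the sarcoplasmic reticulum, had levels of -3.29, -3.35 and -3.04 in cKO MI and -2.64, -1.64 and -2.50 in fl/fl MI, a difference of -0.97 ± 0.32. The sodium-calcium exchanger Slc8a1 had levels of -1.38, -1.93 and -1.69 against -1.08, -0.76 and -0.96 and was lower, with a difference of -0.73 ± 0.20, in both fits. Asph (-0.83), the channel-inhibiting GTPase Rem1 (-0.79) and the calcineurin subunit Ppp3ca (-0.61) were lower as well. Higher were neuronal nitric oxide synthase Nos1, at -3.13, -3.44 and -3.19 against -4.22, -4.19 and -4.43 (1.03 ± 0.17), and a transcript of the SERCA pump Atp2a2 (0.87 ± 0.23), whose slide-block difference of 0.44 was not past the limits. Nos1 was well above background on 1 of 3 fl/fl MI arrays. Leaving out 1 array ended the calls of Ppp3ca (-0.58) without cKO MI replicate 1, Rem1 (-0.72) without cKO MI replicate 2, Rem1 (-0.72) without fl/fl MI replicate 1, and Srl (-0.66), Rem1 (-0.75) and Ppp3ca (-0.54) without fl/fl MI replicate 2.

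Receptor and growth factor transcripts were higher more often than lower. Of 22 named transcripts, 11 were higher and 1 lower, with a median of 0.60, and 12 had been named through this comparison. Among all 892 named transcripts, 373 were higher and 180 lower, with a median of 0.54. Once slide was blocked, 3 were higher and 1 lower. Egfr, the epidermal growth factor receptor, had levels of 2.52, 2.55 and 1.93 in cKO MI and 1.26, 0.75 and 1.14 in fl/fl MI, a difference of 1.28 ± 0.27 (adjusted p = 0.087). Inhbb, the beta B subunit of activins and inhibins, had levels of 0.54, 1.22 and 0.72 against -0.23, -0.39 and -0.24, a difference of 1.11 ± 0.20. Both were higher in every cKO MI heart and had slide-block differences of 1.20 and 1.07, past the limits. The Wnt antagonist sclerostin, Sost, had levels of 2.44, 3.50 and 2.62 against 0.95, 0.59 and 1.92, a difference of 1.70 ± 0.44, with the fl/fl MI array of slide 1 the highest of its group. Its slide-block difference was 0.93, not past the limits.

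The angiotensin receptor Agtr1b (1.0), the Wnt receptor Fzd2 (0.82), the endothelin receptor Ednra (0.78), Ntrk2 (0.71), Igfbp4 (0.68), Tgfb3 (0.63) and Tgfb1 (0.61) were higher, of which Igfbp4 was past the limits in both fits. The apelin receptor Aplnr had levels of -0.57, -1.07 and -1.11 against -0.29, 0.36 and 0.00 and was lower, with a difference of -0.94 ± 0.35. Wnt9a was lower in the slide-block fit (-1.22) but not without the block (-0.41). Dvl1 and Wnt5a were not well above background on any fl/fl MI array, so only bounds can be given, at least 1.05-fold higher for Dvl1 and at least 1.01-fold higher for Wnt5a in cKO MI. After normexp the difference of Dvl1 turned to -0.0041, and its call was lost on leaving out any of 5 of the 6 MI arrays, all but fl/fl MI replicate 3. The bound takes, on each array, the lowest signal among probes well above background or the probe's own, whichever is higher, for the dimmer group. Outside the lists, the largest bounds of this kind were at least 1.47-fold for Slc26a5 and at least 1.27-fold for Ica1. The call of Slc26a5 was lost without cKO MI replicate 3. With 1 array left out, the other calls lost were Tgfb3 (0.45), Tgfb1 (0.54) and Aplnr (-0.86) without cKO MI replicate 2, Tgfb1 (0.57) and Aplnr (-0.84) without cKO MI replicate 3, Tgfb3 (0.56) and Tgfb1 (0.56) without fl/fl MI replicate 1, and Tgfb3 (0.51), Tgfb1 (0.58) and Aplnr (-0.77) without fl/fl MI replicate 2.

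Collagen transcripts were past the limits in part. Of 14 named transcripts of collagens and their modifying enzymes, 5 were higher and 0 lower, with a median of 0.18, and 5 had been named through this comparison. With slide as a block, 2 were higher and 1 lower, with a median of 0.22. Col1a1, of fibrillar type I collagen, had levels of -1.82, -0.31 and -1.01 in cKO MI and -1.99, -1.88 and -1.97 in fl/fl MI. Replicate 2, the male, was the highest of the cKO MI hearts, and the difference was 0.90 ± 0.30. Its partner Col1a2 had levels of 3.69, 4.98 and 4.30 against 4.16, 4.05 and 4.13, which overlapped, with a difference of 0.21 ± 0.27. Col3a1, with levels of 4.05, 4.84 and 4.20 against 4.31, 4.53 and 4.33, likewise overlapped, with a difference of -0.03. Col6a1 had levels of 4.34, 4.76 and 4.56 against 3.80, 3.56 and 3.86 and was higher by 0.82 ± 0.15, or 0.70 with slide as a block. Col5a2 (1.04), Col8a1 (0.83) and the prolyl hydroxylase Leprel1 (0.62) were higher. Calls lost without 1 array were those of Col5a2 (1.08) and Leprel1 (0.55) without cKO MI replicate 1, Col1a1 (0.53) and Col5a2 (0.94) without cKO MI replicate 2, Col5a2 (1.09) without cKO MI replicate 3, Col5a2 (1.01) without fl/fl MI replicate 1, Col5a2 (0.95) without fl/fl MI replicate 2, and Leprel1 (0.56) without fl/fl MI replicate 3.

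Of 26 named matrix glycoproteins and proteoglycans, 8 were higher and 4 lower, with a median of 0.55, and 11 had been named through this comparison. In the slide-block fit, 1 was higher and 3 lower. Prg4, the lubricant proteoglycan lubricin, had levels of -2.13, -0.25 and -1.08 in cKO MI and -3.08, -3.19 and -2.93 in fl/fl MI. The cKO MI hearts were spread over nearly 2 log2 units, all above the fl/fl MI hearts, and the difference was 1.92 ± 0.54, or 1.78 with slide as a block, not past the limits. Comp, cartilage oligomeric matrix protein, had levels of 3.71, 4.67 and 3.83 against 2.68, 2.63 and 3.27, a difference of 1.21 ± 0.40 (adjusted p = 0.170), or 0.80 with slide as a block, not past the limits. Svep1 (0.89), Gpc4 (0.88), Serpine2 (0.86), Prelp (0.75), Gpc1 (0.70) and the proteoglycan Cspg5 (0.74) were higher too, with Cspg5 past the limits in both fits. Periostin (Postn, 0.73 ± 0.48) and fibronectin (Fn1, 0.63 ± 0.40), both markers of activated fibroblasts, were not past the limits. Lect1, the antiangiogenic cartilage and valve protein chondromodulin, had levels of -4.50, -4.54 and -4.24 against -3.18, -2.69 and -3.04. It was lower, with a difference of -1.45 ± 0.21 (adjusted p = 0.073), or -1.38 with slide as a block. Across the alternative fits described below, the difference of Lect1 lay between -1.56 and -0.66. The endothelial matrix protein Mmrn2 (-0.80), the membrane-type protease Mmp25 (-0.79) and Ucma (-0.59) were lower, the first 2 in both fits. No longer past the limits with 1 array left out were Gpc1 (0.69) without cKO MI replicate 1, Comp (0.91), Svep1 (0.69), Serpine2 (0.77), Prelp (0.55), Gpc1 (0.66) and Ucma (-0.55) without cKO MI replicate 2, Serpine2 (0.82) without cKO MI replicate 3, and Serpine2 (0.57), Gpc1 (0.47) and Ucma (-0.47) without fl/fl MI replicate 2.

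Genes of mitochondrial respiration had negative differences of similar size. All 11 named transcripts of oxidative phosphorylation had differences between -0.64 and -0.45, with a median of -0.53, and 3 were lower, namely the ATP synthase subunits Atp5e and Atp5j2 (-0.59) and the complex III hinge protein Uqcrh (-0.62). All 11 had been named through this comparison, as lower, which fixes their direction. The limits fall within this narrow range, so that after quantile normalization all 11 were lower, while with slide as a block 1 was (Cox7a1, -0.68). The levels of Uqcrh were 0.39, 0.12 and 0.61 in cKO MI and 1.07, 1.09 and 0.82 in fl/fl MI, with no overlap. The calls lost when 1 array was left out were Atp5e (-0.56) and Atp5j2 (-0.54) without cKO MI replicate 1, Atp5e (-0.48), Atp5j2 (-0.46) and Uqcrh (-0.49) without cKO MI replicate 2, Atp5e (-0.68), Atp5j2 (-0.58) and Uqcrh (-0.58) without fl/fl MI replicate 1, and Atp5e (-0.52), Atp5j2 (-0.52) and Uqcrh (-0.57) without fl/fl MI replicate 2.

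In fuel use and mitochondrial metabolism, 9 of 23 named transcripts were lower and 5 higher, with a median of -0.51, and 20 had been named through this comparison. After quantile normalization 14 were lower and 5 higher, and with slide as a block 4 were lower and 4 higher. Pdk4, the kinase that turns off pyruvate dehydrogenase, had levels of 6.05, 6.19 and 6.01 in cKO MI and 4.88, 5.18 and 4.93 in fl/fl MI, a difference of 1.09 ± 0.27, or 1.15 with slide as a block. The mitochondrial carrier Ucp2 (0.70), hexokinase Hk1 (0.65), Acsf2 (1.44) and Eno4 (0.60) were higher. Both transcripts of Dbi, the acyl-CoA binding protein, were lower in both fits, with differences of -0.77 ± 0.19 and -0.80 ± 0.13. The levels of the second were 0.40, 0.32 and 0.53 against 1.22, 1.26 and 1.16, with no overlap. The Krebs cycle enzyme Dlst (-0.82), the muscle fructose bisphosphatase Fbp2 (-0.68), the mitochondrial deacetylase Sirt3 (-0.66) and hexokinase Hk2 (-0.63) were lower. Leaving out 1 array ended the calls of Hk2 (-0.55) without cKO MI replicate 1, Eno4 (0.55), Fbp2 (-0.55) and Hk2 (-0.58) without cKO MI replicate 2, Hk2 (-0.68) without fl/fl MI replicate 1, Eno4 (0.52), Sirt3 (-0.51) and Hk2 (-0.51) without fl/fl MI replicate 2, and Eno4 (0.58) and Hk2 (-0.69) without fl/fl MI replicate 3.

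Ribosomal protein transcripts had mostly negative differences too. Of 11 named cytosolic ribosomal protein transcripts, 4 were lower and 1 higher, with a median of -0.57, and all 11 had been named through this comparison. After quantile normalization 10 were lower and 1 higher, and with slide as a block 1 was lower. Rps14, of the small subunit, had levels of 2.43, 2.29 and 2.87 in cKO MI and 3.42, 3.56 and 3.41 in fl/fl MI, a difference of -0.94 ± 0.24, or -0.89 with slide as a block. Rpl19 (-0.73), Rps27a (-0.71) and Rpsa (-0.68) were lower, and Rps16 was higher (0.85), although not with slide as a block (0.58). Ribosomal protein genes have many near-identical processed copies, so that probes of this family are uncertain. Of 11 named mitochondrial ribosome and translation transcripts, 10 of them named through this comparison, 3 were lower (Mrpl10, -0.69, Mrpl12, -0.61, and Mrpl41, -0.65) and 2 higher (Mrpl40, 1.36, and Mrps27, 0.94), with a median of -0.44. After quantile normalization 8 of these were lower, while with slide as a block 0 were lower and 0 higher in limma, with an unadjusted p under 0.05 for 3 of 11. With 1 array left out, the calls lost were Rps27a (-0.56) without cKO MI replicate 1, Rpsa (-0.57), Mrpl12 (-0.55), Mrpl41 (-0.53) and Mrps27 (0.75) without cKO MI replicate 2, Mrps27 (0.90) without cKO MI replicate 3, Mrpl12 (-0.57), Mrpl41 (-0.56) and Mrps27 (0.89) without fl/fl MI replicate 1, and Rps27a (-0.54), Rpsa (-0.51), Mrpl10 (-0.51) and Mrps27 (0.77) without fl/fl MI replicate 2.

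Of 12 named RNA splicing transcripts, 5 were lower and 3 higher, with a median of -0.50, and 10 had been named through this comparison. Zranb2, a zinc finger splicing regulator, had levels of -1.65, -1.74 and -1.47 in cKO MI and -0.78, -0.65 and -0.93 in fl/fl MI, a difference of -0.83 ± 0.14. The CELF family member Celf3 was lower, with a difference of -0.65 ± 0.09. These were the 2 splicing transcripts that were also lower with slide as a block (-0.69 and -0.69). The splicing factor 3b subunit Sf3b2 (-0.78) and both transcripts of Acin1 (-0.65 and -0.79) were lower without the block, and Srek1 (0.71), Prpf31 (0.65) and Tial1 (0.79) were higher. The sign of the Tial1 difference turned after normexp background correction. Calls lost without 1 array were those of Sf3b2 (-0.79), Acin1 NM_023190 (-0.55), Acin1 NM_001085473 (-0.67) and Tial1 (0.73) without cKO MI replicate 1, Acin1 NM_023190 (-0.70) and Tial1 (0.79) without cKO MI replicate 2, Sf3b2 (-0.75), Acin1 NM_023190 (-0.70), Prpf31 (0.55) and Tial1 (0.84) without cKO MI replicate 3, Acin1 NM_023190 (-0.72), Acin1 NM_001085473 (-0.75) and Tial1 (0.80) without fl/fl MI replicate 1, Sf3b2 (-0.51), Acin1 NM_023190 (-0.51), Acin1 NM_001085473 (-0.72), Srek1 (0.53), Prpf31 (0.55) and Tial1 (0.59) without fl/fl MI replicate 2, and Acin1 NM_023190 (-0.72) without fl/fl MI replicate 3.

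Microtubule genes were higher more often than lower. Of 11 named transcripts of microtubules and their motors, all named through this comparison, 8 were higher and 3 lower. Their median was 0.75, beside 0.54 over all named transcripts, and with slide as a block 4 were higher and 1 lower. Map1b, a microtubule-associated protein, had levels of 1.55, 2.01 and 1.86 in cKO MI and 0.98, 0.67 and 1.02 in fl/fl MI, a difference of 0.92 ± 0.16 (adjusted p = 0.073). Atat1, the acetyltransferase of alpha-tubulin, had levels of 0.89, 1.59 and 1.20 against 0.41, 0.32 and 0.57, a difference of 0.80 ± 0.18. Dync1i2, a dynein intermediate chain, was higher by 0.75 ± 0.17, and these 3 were past the limits in both fits. The alpha-tubulins went opposite ways, Tuba1b higher (1.27, or 0.61 with slide as a block) and Tuba4a lower (-0.91, or -0.97 with slide as a block). Tuba4a had levels of 3.64, 3.14 and 3.06 against 4.20, 4.12 and 4.24, which did not overlap. Map4 (-1.02) and the tubulin cofactor Tbca (-0.72) were lower. Tubulin genes are near-identical to each other, so that single probes of them are uncertain. No longer past the limits with 1 array left out were Map4 (-0.91) without cKO MI replicate 1, Tbca (-0.64) without cKO MI replicate 2, Map4 (-0.98) without fl/fl MI replicate 1, and Map4 (-0.93) without fl/fl MI replicate 2.

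Of 14 named transcripts of protein folding and amino acid stress, all named through this comparison, 8 were higher and 1 lower, with a median of 0.70. With slide as a block, which leaves 1 fl/fl MI array, Txnip (1.21) kept its call and the other calls did not hold. The median in that fit was 0.45, and slide and that single fl/fl MI array cannot be told apart in it. The chaperones Hsp90ab1 and Hspa1l had differences of 1.20 ± 0.34 and 1.22 ± 0.30, against slide-block differences of 0.45 and 0.58, not past the limits. Hsp90ab1 had levels of 7.46, 7.69 and 7.72 in cKO MI and 6.48, 5.63 and 7.18 in fl/fl MI, in which the fl/fl MI array of slide 1 was the highest of its group. The unfolded protein response sensor Atf6 (0.67), its protease Mbtps2 (0.72), Herpud2 (0.76), Bag4 (0.63) and the cationic amino acid transporter Slc7a1 (0.77) were higher without the block. The calls lost when 1 array was left out were Txnip (0.70) without cKO MI replicate 1, Txnip (0.80), Atf6 (0.58) and Bag4 (0.58) without cKO MI replicate 2, Bag4 (0.53) without cKO MI replicate 3, Atf6 (0.52), Mbtps2 (0.54), Herpud2 (0.55), Bag4 (0.47) and Slc7a1 (0.57) without fl/fl MI replicate 2, and Txnip (0.61) without fl/fl MI replicate 3.

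Among 9 named cell death transcripts, all named through this comparison, 5 were higher and 3 lower, while with slide as a block 2 were higher and 2 lower. Casp8ap2, a protein that binds caspase 8, had levels of -1.0, -1.11 and -1.41 in cKO MI and -2.24, -2.73 and -2.10 in fl/fl MI, a difference of 1.18 ± 0.20 (adjusted p = 0.073). Ppp1r13l, the p53 inhibitor iASPP, was higher by 1.06 ± 0.19, with levels of 0.54, 1.15 and 0.97 against -0.10, -0.33 and -0.08. Clusterin (Clu, 1.06), the survival protein Bcl2 (0.83) and Bnipl (0.60) were higher as well. The death ligand Tnfsf10, known as TRAIL, had levels of -2.95, -2.97 and -2.42 against -2.05, -1.69 and -1.66 and was lower, with a difference of -0.98 ± 0.32, or -1.12 with slide as a block. The pore-forming gasdermin Gsdmd (-0.66) and Naip5 (-0.61) were lower. The higher members thus held Bcl2 and iASPP, which are known to oppose cell death, beside Casp8ap2, which is known to promote it. Leaving out 1 array ended the calls of Bnipl (0.44) and Naip5 (-0.55) without cKO MI replicate 2, Bnipl (0.58) without fl/fl MI replicate 1, and Gsdmd (-0.49) and Naip5 (-0.55) without fl/fl MI replicate 2.

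Leukocyte genes had differences on both sides of 0. Of 31 named transcripts, 4 were higher and 7 lower, with a median of -0.02, and 14 had been named through this comparison. Once slide was blocked, 5 were lower and 0 higher in limma, with an unadjusted p under 0.05 and a difference above 0 for 0. Macrophage genes that were not named through this comparison overlapped between the groups: Emr1, the F4/80 antigen, had levels of 1.57, 2.10 and 2.20 against 2.04, 1.67 and 1.79, Lyz2 levels of 4.08, 4.61 and 4.70 against 4.72, 4.60 and 4.41, and Cd14 a difference of 0.23 ± 0.26. The T cell genes Il2ra (1.11), Cd4 (1.03) and Cd69 (0.71) and the natural killer receptor Klrb1a (0.88) were higher, and their slide-block differences of 0.53, 0.36, 0.44 and 0.50 were not past the limits. The lymphocyte adaptor Sash3 had levels of -0.94, -1.04 and -0.87 against -0.19, 0.05 and -0.27 and was lower, with a difference of -0.82 ± 0.14 (adjusted p = 0.073). Fcrl1 (-0.77), the natural killer receptor Klrk1 (-0.73) and the transcription factor Runx3 (-0.67) were lower in both fits, and Inpp5d (-0.60) and Ms4a2 (-0.63) were lower without the block. With 1 array left out, the calls lost were Inpp5d (-0.53) and Ms4a2 (-0.58) without cKO MI replicate 2, Ms4a2 (-0.57) without cKO MI replicate 3, and Inpp5d (-0.51) and Ms4a2 (-0.57) without fl/fl MI replicate 2.

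Of 9 named endothelial transcripts, all named through this comparison, 6 were lower and 1 higher, with a median of -0.67, and with slide as a block 1 was lower, Mmrn2 (-0.74). Mmrn2 had levels of -0.85, -0.85 and -0.71 in cKO MI and -0.07, 0.12 and -0.07 in fl/fl MI, with no overlap. Cgnl1 (-0.78), Tmem204 (-0.71) and Etv2 (-0.67) were also lower, while the transcription factor Gata2 was higher (1.27, slide-block difference 0.60, not past the limits). Of the 8 defining endothelial markers, 1 had a name, Icam2, whose levels overlapped (-0.43 ± 0.25). Calls lost without 1 array were those of Tmem204 (-0.56) and Etv2 (-0.49) without cKO MI replicate 2, and Tmem204 (-0.57) without fl/fl MI replicate 2.

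The adipocyte and major urinary protein genes gave the largest negative differences, and their size depended in part on 1 heart. Adipoq, the adipokine adiponectin, had levels of -2.25, -3.33 and -2.64 in cKO MI and -0.51, 1.5 and -0.50 in fl/fl MI. Replicate 2 of fl/fl MI was about 2 log2 units above its group, and the difference of -2.91 ± 0.74 (adjusted p = 0.108) became -2.24 without that array and -2.24 with slide as a block, where it was not past the limits. Mup15 had levels of -3.50, -4.68 and -4.80 against -1.86, 1.45 and -1.88, a difference of -3.56 ± 1.07 that became -2.46 without fl/fl MI replicate 2. Mup16 (-2.93, or -1.87 without it) and Mup19 (-2.67, or -1.69 without it) followed the same pattern. Major urinary proteins are liver-made carriers of pheromones, and their genes are near-identical copies, so that a probe may read several of them. Their slide-block differences of -2.45, -1.78 and -1.67 were not past the limits. The adipokine adipsin (Cfd) was lower (-0.88), though not past the limits with slide as a block (-0.51), and Plin4 (-0.16) and Scd1 (-0.20), which mark fat cells too, were not past the limits. No longer past the limits with 1 array left out were Mup16 (-2.69) without cKO MI replicate 3, and Mup16 (-1.87) without fl/fl MI replicate 2.

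Receptors of smell are not known for a role in the LV, and 17 of their transcripts had names, 12 through this comparison. Of these 4 were higher and 1 lower, with a median of 0.57. With slide as a block, 0 were higher and 0 lower in limma, with an unadjusted p under 0.05 for 4 of 17, and the median was 0.42. The largest difference was that of Olfr907, with levels of 2.73, 2.79 and 2.72 in cKO MI and 1.26, 0.90 and 1.97 in fl/fl MI and a difference of 1.37 ± 0.34. The other higher transcripts were those of Olfr730 (0.83), Olfr107 (0.61) and Olfr727 (0.59), and Olfr1395 (-0.61) was lower. The calls lost when 1 array was left out were Olfr107 (0.54), Olfr727 (0.55) and Olfr1395 (-0.65) without cKO MI replicate 1, Olfr727 (0.55) and Olfr1395 (-0.51) without cKO MI replicate 2, Olfr727 (0.52) and Olfr1395 (-0.60) without fl/fl MI replicate 1, Olfr107 (0.53), Olfr727 (0.58) and Olfr1395 (-0.58) without fl/fl MI replicate 2, and Olfr1395 (-0.66) without fl/fl MI replicate 3.

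**Figure D2:**
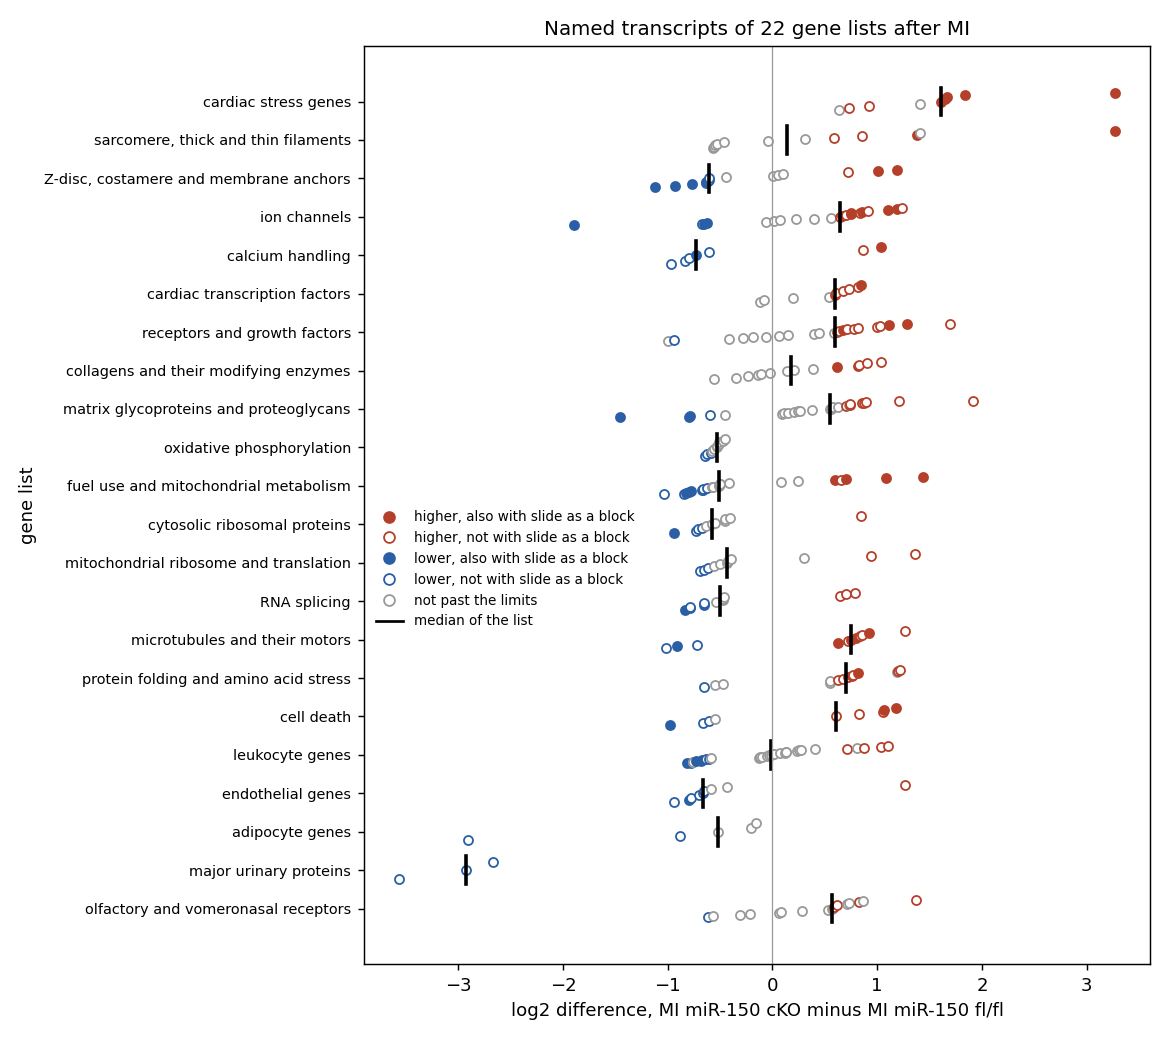
Differences between cKO MI and fl/fl MI (x axis, log2) of the named transcripts of 22 gene lists (y axis), each point 1 transcript, with the vertical bar at the median of the list. Filled points were past the limits also with slide as a block. The cardiac stress genes have a median of 1.60 and 5 filled points, and the oxidative phosphorylation transcripts all lie below 0 near their median of -0.53.

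Some of the largest differences belonged to genes outside the lists. Ankrd45, an ankyrin repeat protein, had levels of 1.17, 1.18 and 0.79 in cKO MI and -0.16, -1.25 and -0.58 in fl/fl MI, a difference of 1.71 ± 0.44, or 1.63 with slide as a block. Serpinb1c, a serine protease inhibitor, had levels of 0.70, -0.12 and -0.59 against -2.05, -1.57 and -1.52, a difference of 1.71 ± 0.51, or 1.52 with slide as a block, not past the limits. Rhot1, a GTPase that tethers mitochondria to microtubule motors, was measured on 2 of 3 cKO MI arrays, with levels of 2.30 and 1.15 against 0.11, -1.56 and -0.05. Its difference of 2.22 ± 0.95, with 1 spot that the scanner software marked as an outlier left out of the fit, had an adjusted p of 0.288 and was 1.77 with slide as a block, not past the limits. Gm11938 had levels of 3.97, 3.81 and 4.16 against 2.23, 1.36 and 3.23, with the fl/fl MI array of slide 1 the highest of its group, and its difference of 1.71 became 0.75 with slide as a block, not past the limits. Leaving out 1 array ended the calls of Rhot1 (1.65) without cKO MI replicate 1, Rhot1 (2.80) without cKO MI replicate 3, Rhot1 (1.69) without fl/fl MI replicate 2, and Rhot1 (2.45) without fl/fl MI replicate 3.

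On the lower side, Ube2j2, a ubiquitin-conjugating enzyme of the endoplasmic reticulum, had levels of 0.90, 0.51 and 1.05 in cKO MI and 1.99, 1.89 and 2.14 in fl/fl MI, a difference of -1.19 ± 0.34, or -1.32 with slide as a block. Exoc3l4 had levels of -2.49, -2.45 and -2.33 against -1.59, -0.51 and -1.48, a difference of -1.23 ± 0.29, or -0.94 with slide as a block. The groups of both did not overlap. Ces1f, a carboxylesterase, had levels of -3.62, -4.22 and -3.78 against -2.73, -1.79 and -2.50 and a difference of -1.53 ± 0.47. Tmem45b had levels of -4.23, -4.95 and -4.48 against -3.17, -2.07 and -3.79 and a difference of -1.54 ± 0.57. The highest Ces1f and Tmem45b values came from fl/fl MI replicate 2, and neither transcript was past the limits with slide as a block (-1.37 and -0.76). With 1 array left out, the calls lost were Tmem45b (-1.34) without cKO MI replicate 2, and Tmem45b (-1.07) without fl/fl MI replicate 2.

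Transcripts of 1 gene did not always go together. Ank1 NM_001277281, of the erythrocyte-type ankyrin that muscle also expresses in short forms, had levels of -0.12, -0.25 and -1.16 in cKO MI and -1.53, -1.93 and -1.64 in fl/fl MI, a difference of 1.19 ± 0.30 (adjusted p = 0.108), or 1.13 with slide as a block. Ank1 NM_001110783 had a difference of 0.00 ± 0.33, with overlapping groups. The differences between transcripts of a gene were not tested.

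For 2 genes, transcripts were past the limits in opposite directions. Trim2 NM_001271728, of a ubiquitin ligase, had levels of -1.34, -1.45 and -0.47 in cKO MI and -2.19, -2.79 and -1.95 in fl/fl MI and was higher by 1.22 ± 0.27, whereas Trim2 NM_001271726 was lower, with a difference of -0.60 ± 0.19. Gtf2ird1 NM_001244936, of a transcription factor of the TFII-I family, was higher by 0.78 ± 0.24, while Gtf2ird1 NM_020331 was lower, with a difference of -0.68 ± 0.21. In the slide-block fit, the values were 0.86 and -0.53 for Trim2 and 0.28 and -0.62 for Gtf2ird1, and the smaller of each pair was not past the limits. In contrast, the transcripts of Dbi and of Fabp5 (-0.57 and -0.85) had the same sign. Calls lost without 1 array were those of Trim2 NM_001271726 (-0.55) without cKO MI replicate 2, Trim2 NM_001271726 (-0.56) without cKO MI replicate 3, and Trim2 NM_001271726 (-0.44), Gtf2ird1 NM_001244936 (0.52) and Gtf2ird1 NM_020331 (-0.58) without fl/fl MI replicate 2.

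**Figure D3:**
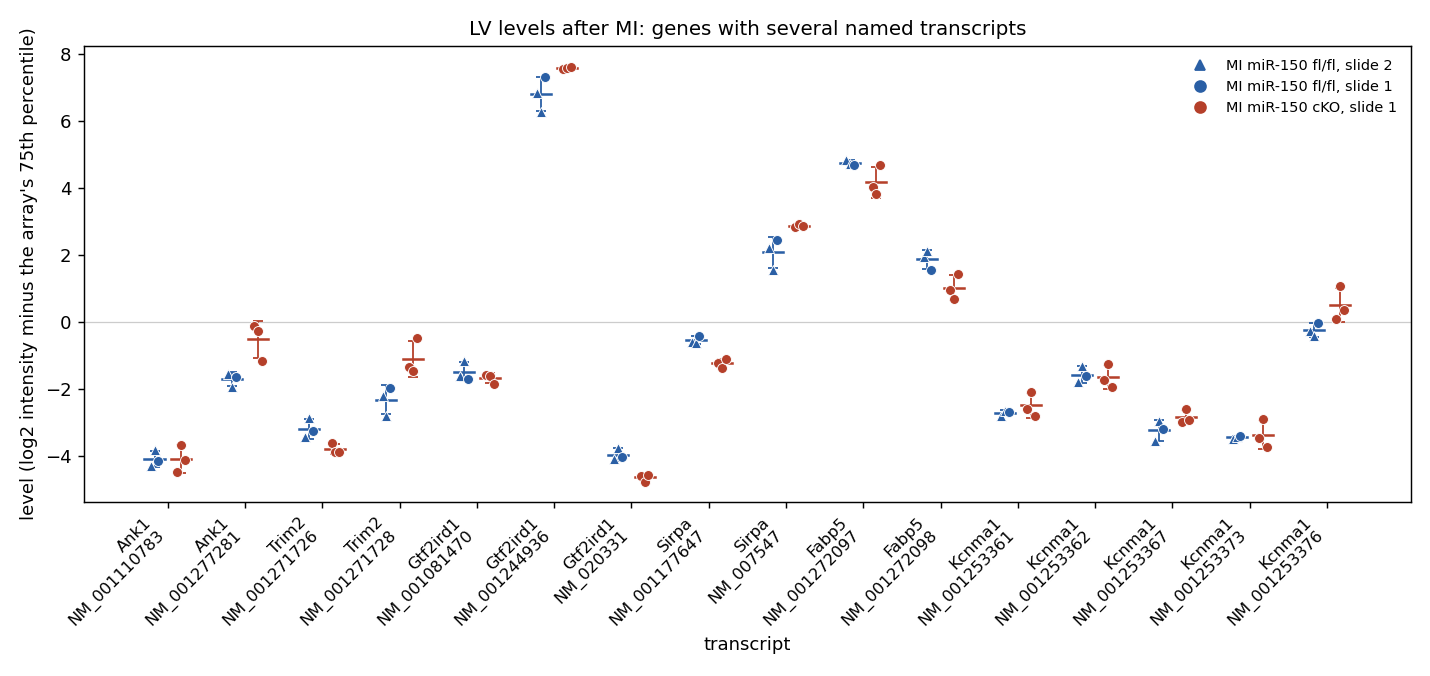
Levels on the 6 MI arrays (y axis, log2 intensity minus the array's 75th percentile) of genes with several named transcripts (x axis), each point 1 mouse, with the mean ± SD as bars. For Ank1 NM_001277281 the cKO MI points lie above all fl/fl MI points, with a difference of 1.19, and for Ank1 NM_001110783 the points overlap, with a difference of 0.00.

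The named transcripts were then followed through 24 alternatives, which changed the normalization, the filter, the test or the samples. Of the 373 higher and 180 lower named transcripts, 139 and 69 were also past the limits with slide as a block. Those past the limits in all 24, or in as many as tested them, numbered 70 higher and 36 lower, beside 158 higher (0.291%) and 84 lower (0.155%) of all transcripts tested. The 70 included the stress genes Myh7, Nppa, Gdf15 and Ctgf, the muscle proteins Mybpc2, Ank1 and Tln1, the channels Kcnj14, Cacna2d4 and Kcns2, the factor Tead2, the signalling genes Egfr and Inhbb, the collagen Col6a1, the microtubule genes Map1b, Atat1 and Dync1i2, and the death regulators Casp8ap2 and Ppp1r13l. The 36 included the anchors Tcap, Dmd and Filip1, the matrix genes Lect1, Mmrn2 and Mmp25, both transcripts of Dbi, the ribosomal gene Rps14, the splicing genes Zranb2 and Celf3, Tuba4a, Tnfsf10, Sash3 and Fcrl1. No transcript of the calcium handling, oxidative phosphorylation, mitochondrial ribosome, protein folding stress, adipocyte, major urinary protein or smell receptor lists was among them. Sprr1a was past the limits in 23 of its 24 alternatives.

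Further genes that held throughout were chosen here after their values were seen. AI593442 was higher by 1.49 ± 0.48, with levels of 0.56, 0.13 and 0.12 in cKO MI and -1.10, -1.04 and -1.53 in fl/fl MI. Crem, a cAMP-responsive transcription factor, was higher by 0.88 ± 0.16, and Usf1, a factor that binds E-boxes, by 1.01 ± 0.30. Both transcripts of Cep57l1 were lower, with differences of -0.87 and -0.81, as was the Limk2 kinase, which acts on cofilin (-0.69 ± 0.17).

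**Figure D4:**
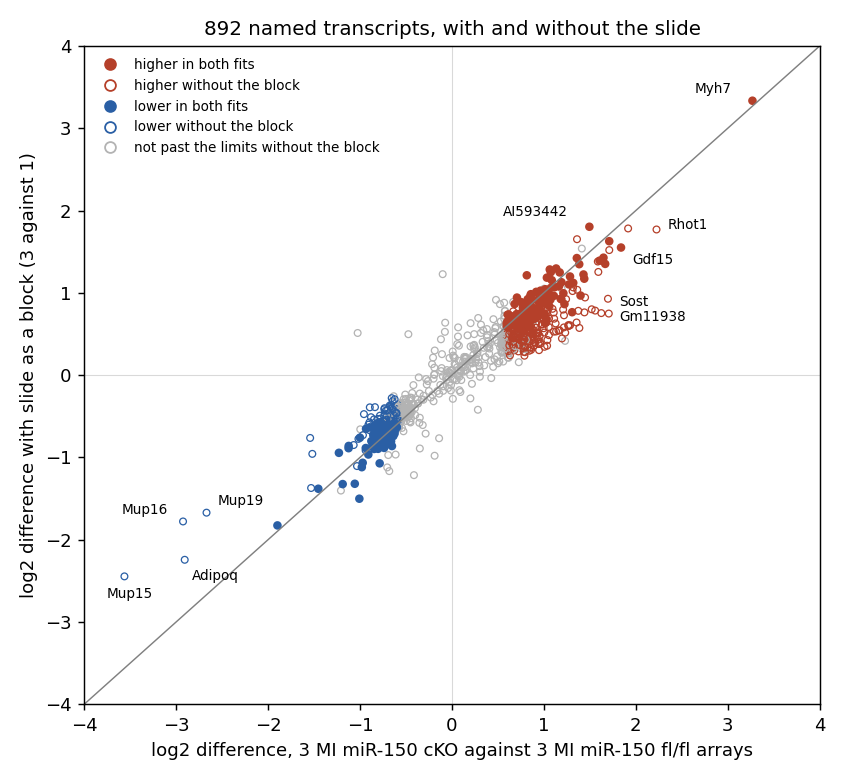
Difference of each of the 892 named transcripts between cKO MI and fl/fl MI (log2), with all 3 arrays a group on the x axis and with slide as a block, which leaves 3 arrays against 1, on the y axis. The line marks equal values and filled points were past the limits in both fits. Myh7 (3.27 and 3.33) lies near the line, and Sost (1.70 and 0.93) and Mup15 (-3.56 and -2.45) lie off it.

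Transcripts that the study's table listed from a comparison of the sham arrays allowed the sham difference to be looked up after MI. Of 79 transcripts listed as higher in sham miR-150 cKO, 15 (18.99%) were higher after MI, against 3.45% of all transcripts tested, and 0 were lower. Differences after MI were above 0 for 54 of the 79 (68.4%), against 50.7% of all transcripts tested, with a median of 0.23. The groups did not overlap, with miR-150 cKO higher, for 23 (29.1%), against 15.4% of all. Once slide was blocked, 9 were higher and 3 lower, against 1.15% and 1.41% of all, and 56 (70.9%) were above 0, against 46.5%. The MI and sham groups share no arrays, but 11 of the 79 were also named through the comparison after MI.

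The 15 were Sprr1a, Nppa, Ankrd1, Serpinb1c, Col1a1, Col8a1, Leprel1, Svep1, Nos1, Ano3, Maats1, Depdc7, B4galnt1, Gm3448 and Gm3417, of which the first 2 had differences of 1.99 and 2.0 in sham hearts and 1.67 and 1.65 after MI. Ano3, an anoctamin family membrane protein, had levels after MI of -2.34, -2.12 and -2.08 in miR-150 cKO and -3.10, -3.67 and -3.26 in miR-150 fl/fl, a difference of 1.16 ± 0.19. Of 54 transcripts listed as lower in sham miR-150 cKO, 3 were higher after MI, Dido1 and Prpf31 among them, and 3 lower (Fbp2, Kcnd2 and Ppp2r3a), each 5.56%, against 3.45% and 1.31% of all tested. Of the 54, 5 were also named through the comparison after MI. Differences after MI were above 0 for 29 of the 54, with a median of 0.02, and with slide as a block 4 were higher and 5 lower. The channel Kcnd2 had a difference of -0.96 in sham hearts and -0.65 after MI. Over all transcripts tested, the interaction of genotype and surgery had 0 adjusted p values under 0.05 in limma and 7285 unadjusted p values under 0.05 (13.4%). Slide was not blocked in this interaction either, so the division of the MI groups between slides enters it. No longer past the limits with 1 array left out were Ppp2r3a (-0.55) without cKO MI replicate 1, Fbp2 (-0.55) without cKO MI replicate 2, Kcnd2 (-0.58) and Prpf31 (0.55) without cKO MI replicate 3, Ppp2r3a (-0.53) without fl/fl MI replicate 1, Prpf31 (0.55), Depdc7 (0.55) and Gm3417 (0.51) without fl/fl MI replicate 2, and Kcnd2 (-0.55) and Ppp2r3a (-0.59) without fl/fl MI replicate 3. Those of Ankrd1, Col1a1, Leprel1 and Svep1 are given above.

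**Figure D5:**
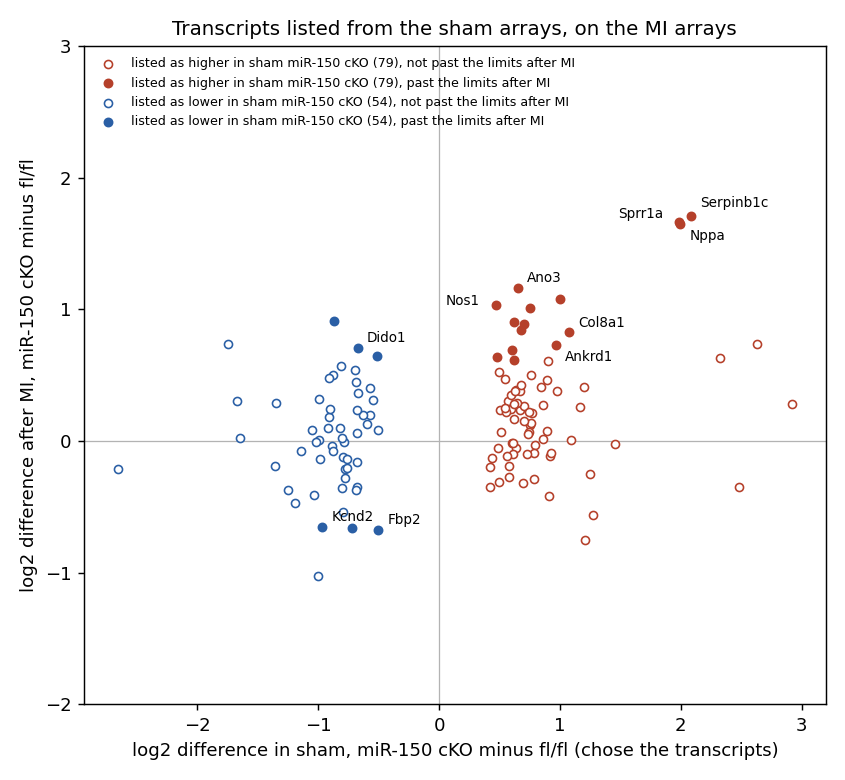
Transcripts listed from the sham arrays as higher (red, 79) or lower (blue, 54) in miR-150 cKO, with the difference in sham hearts that chose them on the x axis and the difference after MI on the y axis, both log2. Filled points were past the limits after MI. Sprr1a, Nppa and Serpinb1c lie highest among the red points, with 15 of 79 red points filled above 0.

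Markers of the cell types of the LV were checked on the same arrays. A marker has a name only if the study selected it in some comparison. The sums below are therefore a description and no independent evidence. Levels of different probes are not comparable, so the brightest probe weighs most in each sum. Of 10 CM markers, 2 had names, Tcap and Tnnt2 (2 transcripts). Their linear levels relative to the 75th percentile summed to 17.8 to 20.6 in cKO MI and 26.7 to 33.8 in fl/fl MI, with no overlap. Of all transcripts tested, 13.1% lay without overlap lower in cKO MI. Tcap and Tnnt2 were above the 75th percentile on all 6 arrays. The sums were 98.5 to 160 against 99.5 to 111 for 7 of 10 fibroblast markers, 42.8 to 60.4 against 41.96 to 46.5 for 7 of 10 leukocyte markers, and 8.70 to 12.1 against 11.6 to 14.8 for 4 of 8 adipocyte markers. Among these, 1 fibroblast marker (Col1a1) and 1 leukocyte marker (Cd4) were higher, and 2 adipocyte markers (Adipoq and Cfd) were lower. Icam2, the 1 named of 8 endothelial markers, ranged from 12.0 to 20.3 against 18.7 to 20.8, and 0 of 6 smooth muscle and pericyte markers had a name. Tcap is itself a member of the anchor list. Some other transcripts of CM genes were higher, such as Myh7 (3.27), Tpm1 (0.86), Nkx2-5 (0.82) and Atp2a2 (0.87). Of these, Myh7 alone was past the limits with slide as a block too. The part of CM content in the differences of anchor, calcium handling and respiration transcripts was not tested.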

How the data were processed

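LV RNA of 12 mice, 1 array per mouse and 3 mice in each of the 4 groups, was purified, amplified with random primers and labelled with Cy3. Per the file headers, spots were read with Agilent Feature Extraction 11.0.1.1. The deposited intensity of each spot was linear, with its local background removed and no scaling from array to array. The authors also gave a table of log2 values whose quartiles are equal on all 12 arrays. The method behind that table is not given in the sources used here. That the mice were separate animals is taken from the labels.

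Of 60930 probes other than control spots, 60819 entered the analysis, after removal of 96 absent from the authors' table and of 15 negative controls. The 435 spots marked as outliers (0.0593%) were treated as missing, and 0 were saturated. After log2 and subtraction of the array's 75th percentile, a probe had to be well above background on 3 or more of the 12 arrays, and 6587 were not. Group means of the 4 groups were fitted with limma 3.58.1 (R 4.3.3, package data.table, version 1.17.8) over all 12 arrays with 8 residual degrees of freedom, or 10.4 with its prior. The limits were a 1.5-fold difference with an unadjusted p under 0.05, and adjustment was by the Benjamini-Hochberg method. The median SE of a difference was 0.155, or 0.219 with slide as a block. Tables and figures were made with Python 3.11.15, pandas 2.3.3, numpy 2.4.6, scipy 1.17.1 and matplotlib 3.10.9.

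The arrays' files name no genes. Fold and p values of the study's gene table were used only as a key: all 963 entries that could be read each matched exactly 1 probe of that table, with a tolerance of 2e-05 of the value, which named 892 probes. These columns of the authors' own comparisons were used for nothing else. RefSeq tables gave updated symbols for 879 of the 892 by accession.

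The members of the comparison, the gene lists and tests were chosen with earlier results of these data known. Named in the text are the 10 transcripts with the largest difference in each direction (past the limits, groups not overlapping, above background on 2 or more of 3 arrays in both groups), genes that the paper measured in mouse hearts, members of 22 gene lists, genes with transcripts past the limits in opposite directions, and the largest bounds. A few transcripts that enter the counts are not reported here by name. Tried as alternatives were other filters, the authors' values, quantile normalization, normexp (offset 50), the MI arrays alone, the methods' t-test, sex, replicate number and slide as terms, and each array left out. Quantile normalization with slide as a block and the t-test on the authors' values without a filter were added after seeing the data. On simulated data made from these arrays, 85 of 100 transcripts changed by 1.5 and 96 of 100 changed by 3 (log2) had an adjusted p under 0.05, and 99 and 99 were past the limits. Of 53779 unchanged transcripts, 7 had an adjusted p under 0.05 and 817 were past the limits. The simulated noise was independent between arrays and transcripts, with no effect of slide and no array that stood apart. These rates therefore need not hold for the real comparison.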

Additional observations from a re-analysis of the deposited data

Results flagged for a closer look

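For 3 named transcripts, the genotype difference after MI and that in sham hearts had opposite signs, each past the limits on size and unadjusted p and each with no overlap between its 2 groups of arrays. Dido1 NM_177852 was higher after MI (0.71) and had a difference of -0.67 in sham hearts, with an interaction of 1.38 ± 0.27 (SE) and an adjusted p of 0.189 in limma. Mup15 NM_001200004 was lower after MI (-3.56) and had a difference of 2.57 in sham hearts, with an interaction of -6.14 ± 1.51 and an adjusted p of 0.209, and its difference after MI was -2.46 without fl/fl MI replicate 2. Nts NM_024435 was lower after MI (-0.69) and had a difference of 0.82 in sham hearts, with an interaction of -1.51 ± 0.40 and an adjusted p of 0.223, and its difference after MI was no longer past the limits without cKO MI replicate 2 (-0.46) or without any 1 of the 3 fl/fl MI arrays (-0.71, -0.67 and -0.69). None of the 3 passed the adjustment over all transcripts tested. Slide was not blocked in these interactions, and all sham arrays were on slide 2, so the division of the MI groups between slides enters them.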

How the results depend on the processing

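Beside 1873 higher and 712 lower transcripts, 1 adjusted call, and 15 and 3 of the sham-listed transcripts called in their direction, the counts that moved by over 1.5 times were as follows. With slide as a block there were 625 higher transcripts, 80 adjusted calls, and 9 and 5 sham-listed transcripts. Quantile normalization with that block gave 762 higher, 113 adjusted and 5 sham-listed lower transcripts. Normexp gave 338 lower, 1531 adjusted and 8 sham-listed higher transcripts. The methods' t-test gave 1218 higher transcripts, and on the authors' values without a filter 1174, each with 0 adjusted calls and with 9118 and 10304 unadjusted p values under 0.05. Adjusted calls numbered 2 after quantile normalization, 5 with the MI arrays alone, 295 with the filter on all 12 arrays and 304 with sex as a covariate. Leaving out each array gave 946 (without fl/fl MI replicate 2) to 2794 higher and 423 to 1177 lower transcripts, 0 to 99 adjusted calls, 13 to 17 sham-listed higher and 2 to 3 sham-listed lower transcripts. The cause was not tested. Counts of calls over all transcripts under the other settings, such as 1693 higher and 1003 lower with the authors' values or 1661 and 1000 after quantile normalization, were within 1.5 times.

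Deviations of same-numbered MI arrays from their group means had correlations of -0.091, -0.052 and -0.093, and 0 of 3 cKO MI arrays correlated best with their own number. Slide and the outlying fl/fl MI replicate 2 enter these deviations, so they cannot decide whether replicate numbers pair the mice. With the replicate block there were 1843 higher and 771 lower transcripts, 0 adjusted calls in limma against 8961 unadjusted p values under 0.05, and 15 and 3 sham-listed transcripts.

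Of 196 named transcripts past the limits that were followed, 46 kept the call in every alternative that tested them, 78 with slide as a block, 127 after normexp, 132 without fl/fl MI replicate 2 and 189 after quantile normalization. Of their 4682 values under alternatives, 4116 kept direction and call, 564 kept direction alone and 2 turned, both after normexp: Dvl1 to -0.0041 and Tial1 to -0.044. Both were dim in fl/fl MI. The 6 MI arrays, a slide that nearly divides the groups and names drawn from selected transcripts limit all counts, and transcripts not well above background on any array of a group have only bounds.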

Other observations

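Probes named as long intergenic noncoding RNAs (lincRNAs), which the report's lists do not use, numbered 1462 among those tested. Of these, 30 (2.05%) were higher and 21 (1.44%) lower in cKO MI, beside 3.45% and 1.31% of all transcripts tested.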
